A study of Mus musculus with 8 samples.

Results

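The 10 genes described here serve the movement of water and ions across epithelia. They are the water channel genes Aqp1, Aqp3, Aqp4, Aqp5 and Aqp9, the chloride channel gene Cftr, the sodium-proton exchanger gene Slc9a3, the sodium channel subunit gene Scnn1a, the carbonic anhydrase gene Car2 and the sodium pump subunit gene Atp1b1. They were picked by symbol from the 24346 genes listed for each library, and all 10 were found. The rule uses no measured value, but the 10 genes were chosen with earlier results of these data known.

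Adipose-derived stem cells (ADSCs), the adherent cells grown from digested fat, were cultured from the gonadal fat of wild-type BALB/c mice, which the methods of the study give as males of 12 weeks. RNA was sequenced from 4 flat (2D) cultures, of mice 2, 3, 4 and 5, and from 4 organotypic (3D) cultures in Matrigel, of mice 1, 4, 5 and 7. Each library came from 1 mouse, and both kinds were made from mice 4 and 5. The methods describe Matrigel cultures with conditioned media that carry Wnt3a and R-Spondin1, and the medium and passage of the sequenced 3D cultures are not given in the sources used here. The shape of the culture, the matrix and the medium therefore cannot be told apart. The gonadal fat of a male lies against the epididymis.

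Secretory and absorptive epithelia share a common set of transporters. The sodium pump at the basal side keeps sodium low inside the cell, and sodium, potassium and chloride carriers use this gradient. Chloride leaves through apical channels, sodium enters through the epithelial sodium channel or sodium-proton exchangers, and water follows through aquaporins. Carbonic anhydrases supply the bicarbonate and protons that several of the carriers exchange. In adipose tissue, aquaporins that also pass glycerol are best known from adipocytes and Aqp1 from the endothelium.

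All 8 libraries were labelled mesenchymal stem cells, and the marker genes of that type were largely lost in 3D. Of 12 mesenchymal markers, 9 were lower in 3D, 1 (Ly6a) was higher, and 9 lay under 1 FPKM (fragments per kilobase of transcript, scaled to the depth of the library) in all 3D libraries. Pdgfrb and Dcn were listed at 0 in all 3D libraries. The summed level of these markers was between 2884 and 5627 FPKM in 2D and between 331 and 2800 FPKM in 3D, where Ly6a, Itgb1 and Cd44 made up nearly all of it. Of 10 epithelial markers, 9 were higher in 3D, and their sum was between 32.8 and 783 FPKM in 2D and between 2123 and 2561 FPKM in 3D. Epcam, which marks epithelial cells, lay at or below 0.0310 FPKM in 2D and between 212 and 416 FPKM in 3D. The 6 mesothelial markers summed to 884 and 2246 FPKM in the 2D cultures of mice 3 and 4, to 1.41 and 0.359 FPKM in those of mice 2 and 5, and to between 3.68 and 30.6 FPKM in 3D. The 12 markers of the epididymal duct summed to between 0.258 and 0.661 FPKM in 2D and between 0.102 and 5.66 FPKM in 3D, with Lcn5, Lcn9, Lcn10, Lcn12 and Adam7 at 0 in every library. The highest of these sums was that of the 3D culture of mouse 1, where Crisp1 reached 4.21 FPKM. The 5 macrophage markers summed to between 0.970 and 4.38 FPKM in 2D and to 7.09 to 38.6 FPKM in 3D. Of these, Cd68 was called higher in 3D. Csf1r was not called. It was between 0.408 and 1.41 FPKM in 2D and at 0.409, 6.29, 8.13 and 3.68 FPKM in the 3D cultures of mice 1, 4, 5 and 7. In 3D, Adgre1 was at 0, Ptprc at or below 0.0788 FPKM and Mrc1 at or below 0.0128 FPKM. The 5 endothelial markers summed to between 0.676 and 6.46 FPKM in 2D, highest in mouse 4, and to at most 0.204 FPKM in 3D, with 0 called. The 5 adipocyte markers summed to between 6.19 and 43.2 FPKM in 2D and to at most 0.102 FPKM in 3D, with Adipoq and Lep at 0 in every library and Lpl lower in 3D. The part of these marker genes in the differences below was not tested. In bulk RNA, fewer cells of a type and less RNA per cell cannot be told apart.

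The 3D culture of mouse 1 stood apart from the rest of its group, with Ly6a at 50.3 FPKM against 1627 to 2607 FPKM. Its title and group label give it as 3D, whereas its short description, unlike those of the other 7 libraries, does not name the culture type.

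The deposited FPKM values were quantile normalized and converted to log2(normalized FPKM + 1), and 18862 genes above 0 in at least 1 library were tested with limma. A gene was called higher or lower where its p, adjusted by Benjamini-Hochberg for the 18862 tests, was below 0.05. Of the 10 genes, 5 were higher in 3D, namely Aqp5, Aqp9, Scnn1a, Car2 and Atp1b1. The other 5 were not called, and 0 were lower, also at an unadjusted p below 0.05 in limma. Over all genes tested, 41.5% were called, 21.2% as higher and 20.3% as lower. The median fitted log2 difference was 0.92 over the 10 genes and 0.00 over all 18862. In 6 of the 10, all 3D values lay above all 2D values, which was so for 21.6% of all genes, while 42.5% were separated in either direction. The sixth gene was Aqp4. Without the 3D culture of mouse 1, the same 5 of the 10 genes were called, with log2 differences of 3.05 for Aqp5, 3.79 for Aqp9, 1.98 for Scnn1a, 3.78 for Car2 and 3.40 for Atp1b1 (limma adjusted p between 2.4e-04 and 0.0237).

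**Figure D1:**
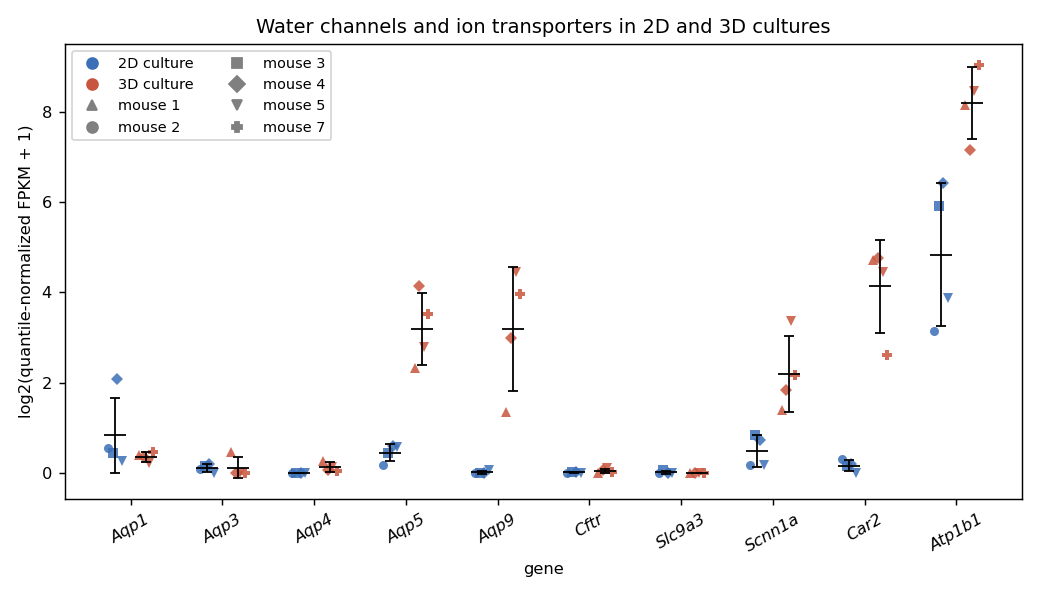
Level of each of the 10 genes in log2(normalized FPKM + 1), with 1 point per library, coloured by culture type and shaped by mouse, and with the mean and SD of each group of 4. Aqp5, Aqp9, Scnn1a, Car2, Atp1b1 and, at far lower levels, Aqp4 have all 4 3D libraries above all 4 2D libraries.

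Aqp5, the water channel of the apical membrane of gland and airway cells, was low in 2D and rose in 3D. Its gene lies at chr15:99590782-99594829 on the plus strand (GRCm38, GENCODE M21, as for all positions of genes given here). It was measured at 0.135, 0.371, 0.512 and 0.487 normalized FPKM in the 2D cultures of mice 2, 3, 4 and 5, and at 4.02, 16.7, 5.93 and 10.5 normalized FPKM in the 3D cultures of mice 1, 4, 5 and 7. The lowest 3D library thus lay well above the highest 2D library. The mean went from 0.377 ± 0.172 to 9.29 ± 5.64 normalized FPKM (SD, n = 4 each), a ratio of 24.7. The fitted log2 difference was 2.75 (SE 0.38, limma adjusted p = 9.3e-04). With the mouse as a block, it was 2.89 with an adjusted p of 0.146.

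Aqp9, a channel that passes water, glycerol and other small solutes and is best known from liver and epididymis, rose as well and varied more between the 3D cultures than Aqp5 did. It was listed at 0 in the 2D cultures of mice 2, 3 and 4 and at 0.0416 normalized FPKM in that of mouse 5. In 3D, it was measured at 1.55, 6.93, 21.02 and 14.6 normalized FPKM in mice 1, 4, 5 and 7. All 3D libraries thus lay above all 2D libraries, and the library of mouse 1 lay lowest among them. The 3D mean was 11.0 ± 8.55 normalized FPKM (SD, n = 4). The value in 2D rests on about 1 fragment in all 4 libraries together, so the deposited 3D mean over the level that 1 fragment gives in the 2D libraries pooled, 2037, has a counting interval from 366 to 80473 (95%, Poisson). The fitted log2 difference was 3.18 (SE 0.62, limma adjusted p = 0.00462), and with the mouse as a block it was 3.69 with an adjusted p of 0.129. The gene, at chr9:71110659-71168682 on the minus strand, shares its locus with Gm32511, annotated on the opposite strand and listed at or below 0.212 FPKM.

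The order of the 2 channels differed between the 3D libraries. Aqp9 stood at 0.437 and 0.447 times the deposited level of Aqp5 in mice 1 and 4, and at 3.07 and 1.37 times that level in mice 5 and 7. Aqp1, Aqp3, Aqp4, Aqp5 and Aqp9 summed to between 0.414 and 3.77 FPKM in 2D and between 8.11 and 26.7 FPKM in 3D. In deposited FPKM, Aqp5 and Aqp9 together made up most of this sum in all 3D libraries, whereas Aqp1 or Aqp5 led in each 2D library.

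Aqp1, the constitutive water channel of endothelium, mesothelium and kidney tubule, was not called. It was measured at 0.462, 0.361, 3.22 and 0.212 normalized FPKM in the 2D cultures of mice 2, 3, 4 and 5, and at 0.314, 0.273, 0.168 and 0.381 normalized FPKM in the 3D cultures of mice 1, 4, 5 and 7. The gene lies at chr6:55336432-55348555 on the plus strand. Only the 2D culture of mouse 4 stood apart, and the remaining 7 libraries overlapped. The fitted log2 difference was -0.48 (SE 0.37, limma adjusted p = 0.347), and without that library it was -0.07. The sums of the mesothelial and of the endothelial markers were both highest in the 2D culture of mouse 4. The 2D culture of mouse 3 had a mesothelial sum of 884 FPKM but Aqp1 at only 0.361 normalized FPKM. A link of Aqp1 with these markers was not tested.

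Aqp3, a basolateral channel for water and glycerol, and Aqp4, the water channel of astrocytes and of some basolateral membranes, were near the limit of detection. Aqp3, at chr4:41092722-41098183 on the minus strand, was measured at 0.0594, 0.121, 0.157 and 0 normalized FPKM in the 2D cultures of mice 2, 3, 4 and 5, and in 3D it was above 0 only in mouse 1, at 0.383. Its log2 difference was 0.00 (SE 0.11, limma adjusted p = 0.989). Aqp4 stood at 0 in each 2D culture and at 0.213, 0.0454, 0.104 and 0.0258 normalized FPKM in the 3D cultures of mice 1, 4, 5 and 7. These values correspond to about 24.5, 3.94, 7.87 and 1.97 fragments. The libraries of the culture types did not overlap, and its log2 difference of 0.13 (SE 0.05) had an adjusted p of 0.0752 in limma. It passed the threshold without the 3D culture of mouse 7 (adjusted p = 0.0424) and with a pseudocount of 0.1 (adjusted p = 0.0299).

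Aqp5 lies between Aqp2 and Aqp6 on the same strand of chromosome 15, with gaps of 6234 and 6570 bp (GENCODE M21, GRCm38). Its neighbours did not share its level. Aqp2, the vasopressin-regulated channel of the kidney collecting duct, was above 0 only in the 3D culture of mouse 1, at a normalized FPKM of 0.0336, and Aqp6 was listed at 0 in all 8 libraries. Among the other relatives, Aqp11 was higher in 3D, at 0.167 ± 0.0468 in 2D and 0.813 ± 0.425 normalized FPKM in 3D (SD, n = 4 each). Its log2 difference of 0.61 (SE 0.16) had an adjusted p of 0.0176 in limma, which came to 0.0783 without the 2D cultures of mice 3 and 4. Of 5 tested relatives, this was the only call, a share of 20% beside 41.5% of all genes.

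Promoter sequences are shown for Aqp5, Aqp9 and Atp1b1, the called genes with a matched entry. The windows of Aqp5 and Aqp9, the 2 water channels called, differ sharply in base composition. Each window covers 250 bases before and 50 bases after a RefSeq start on GRCm38.p6. RefSeq promoter entries were matched for 7 of the 10 genes, and none was matched for Scnn1a and Car2. The sequences run from 5′ to 3′ on the strand of the gene, and capitals mark each CG dinucleotide. The windows are chr15:99590778-99591077 on the plus strand for Aqp5, chr9:71163240-71163539 on the minus strand for the first of 2 starts of Aqp9, and chr1:164458306-164458605 on the minus strand for Atp1b1. The Aqp9 window lies inside the span of its gene given above, and the Aqp5 window does so except for its first bases. Neither is therefore the sequence before the outermost annotated start of its gene.
Aqp5: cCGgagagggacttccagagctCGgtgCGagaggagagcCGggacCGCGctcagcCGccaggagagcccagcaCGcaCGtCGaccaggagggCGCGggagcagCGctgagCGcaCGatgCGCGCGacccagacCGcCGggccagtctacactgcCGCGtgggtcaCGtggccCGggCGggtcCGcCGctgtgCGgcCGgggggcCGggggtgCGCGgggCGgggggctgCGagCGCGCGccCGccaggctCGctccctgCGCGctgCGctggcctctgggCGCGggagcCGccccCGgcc
Aqp9: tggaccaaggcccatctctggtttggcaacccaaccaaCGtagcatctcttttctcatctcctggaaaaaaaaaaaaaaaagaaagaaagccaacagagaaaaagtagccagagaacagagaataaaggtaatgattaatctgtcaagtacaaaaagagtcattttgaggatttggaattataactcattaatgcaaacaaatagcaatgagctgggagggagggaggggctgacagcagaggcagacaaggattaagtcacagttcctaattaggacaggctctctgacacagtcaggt
Atp1b1: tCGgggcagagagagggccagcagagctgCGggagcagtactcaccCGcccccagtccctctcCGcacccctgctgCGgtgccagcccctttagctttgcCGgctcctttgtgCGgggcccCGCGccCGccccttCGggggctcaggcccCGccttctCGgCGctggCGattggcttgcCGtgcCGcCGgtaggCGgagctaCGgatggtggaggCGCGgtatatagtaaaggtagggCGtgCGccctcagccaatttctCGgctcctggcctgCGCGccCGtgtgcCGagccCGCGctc

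The Aqp5 window holds 46 CG dinucleotides, the Aqp9 window 1 and the Atp1b1 window 31, against a median of 7 over 32851 promoter windows of the same length. Of these windows, 98.6% hold no more than Aqp5, 14.1% no more than Aqp9 and 90.5% no more than Atp1b1. The second start of Aqp9 has 4. The letters TATAAA, searched on both strands, were found in the window of Aqp3 alone among the 7 genes and in 13.6% of all windows. The letters AACCNGTT, a form of the site of grainyhead-like factors, were found in none of the 7 and in 2.09% of all windows. These matches describe letters in a window only.

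Scnn1a encodes the alpha subunit of the epithelial sodium channel (ENaC), the pore through which absorptive epithelia take up sodium, and lies at chr6:125320659-125344943 on the plus strand. It was measured at 0.136, 0.786, 0.671 and 0.139 normalized FPKM in the 2D cultures of mice 2, 3, 4 and 5, and at 1.63, 2.57, 9.37 and 3.53 normalized FPKM in the 3D cultures of mice 1, 4, 5 and 7. The groups did not overlap, and mice 3 and 4 were the higher pair within 2D. The mean went from 0.433 ± 0.344 to 4.27 ± 3.48 normalized FPKM (SD, n = 4 each), a ratio of 9.87. The fitted log2 difference was 1.71 (SE 0.42, limma adjusted p = 0.0129). With the mouse as a block it was 2.14 (adjusted p = 0.249), and with only mice 4 and 5 it was 2.15 (adjusted p = 0.102). Within mouse 4, the level was 3.84-fold higher in 3D, and within mouse 5, 67.4-fold. Without the 2D cultures of mice 3 and 4, in which the mesothelial markers were high, the log2 difference was 2.03 (adjusted p = 0.0308).

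The other pore subunits stood lower. Scnn1g stood at 0 in each 2D culture and at 0.401, 0.0792, 0.179 and 0.206 normalized FPKM in the 3D cultures of mice 1, 4, 5 and 7. Its adjusted p was 0.0169 in limma. Scnn1b reached 3.42 normalized FPKM in the 3D culture of mouse 1 and from 0.254 to 0.787 in the rest of that group, with an adjusted p of 0.0878. Scnn1a made up 31.5% of the summed FPKM of the subunits in the 3D culture of mouse 1 and between 83.9% and 89.8% in those of mice 4, 5 and 7. The library of mouse 1 was thus the only 3D library in which another subunit led.

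Of 7 other genes of the channel and its regulation, 4 were higher in 3D, 1 was lower and 2 were not called. The share called was 71.4%, beside 41.5% of all genes. Prss8, a membrane protease that activates the channel, went from 0.0737 ± 0.0670 to 35.9 ± 5.18 normalized FPKM (SD, n = 4 each), a ratio of 487 (log2 difference 5.09, SE 0.14, limma adjusted p = 3.5e-07). Nr3c2, the mineralocorticoid receptor through which aldosterone acts, went from 0.179 ± 0.139 to 4.84 ± 2.12 normalized FPKM (log2 difference 2.23, SE 0.30, adjusted p = 8.2e-04). Nedd4l, the ubiquitin ligase that removes the channel from the membrane, was higher by 1.10 on the log2 scale (adjusted p = 0.00107). Sgk1, the kinase that aldosterone induces and that counters Nedd4l, moved in the other direction. It was measured from 92.9 to 97.7 normalized FPKM in 2D and from 1.47 to 5.31 in 3D, a fall of 33.0-fold in the mean (log2 difference -4.73, SE 0.28, adjusted p = 1.3e-05).

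Car2, the fast cytosolic carbonic anhydrase that interconverts carbon dioxide and bicarbonate, had a larger fitted difference than the other 9 genes over all 8 libraries, but not without the 3D culture of mouse 1, where it was 3.78 and that of Aqp9 3.79. Its ratio of means was below that of Aqp9. It lies at chr3:14886273-14900770 on the plus strand. It was measured at 0.234, 0.119, 0.154 and 0 normalized FPKM in the 2D cultures of mice 2, 3, 4 and 5, and at 25.3, 26.2, 20.9 and 5.09 normalized FPKM in the 3D cultures of mice 1, 4, 5 and 7. All 3D libraries lay far above the 2D libraries, and mouse 7 stood below the other 3D libraries. The mean went from 0.126 ± 0.0971 to 19.4 ± 9.79 normalized FPKM (SD, n = 4 each), a ratio of 153. The fitted log2 difference was 3.97 (SE 0.47, limma adjusted p = 4.3e-04), and with the mouse as a block it was 4.50 with an adjusted p of 0.111.

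Of 9 other carbonic anhydrase genes, 7 could be tested, and 2 of these were higher in 3D, 1 was lower and 4 were not called. The share called, 42.9%, was close to the 41.5% of all genes. Car13, a cytosolic relative of Car2 on the same chromosome, went from 2.81 ± 0.612 to 21.5 ± 8.67 normalized FPKM (log2 difference 2.50, SE 0.27, limma adjusted p = 2.5e-04). Car5b, the mitochondrial enzyme, was higher by 1.65 on the log2 scale (SE 0.34, adjusted p = 0.00617). Car6, the secreted enzyme known from saliva, was measured from 1.80 to 2.96 normalized FPKM in 2D and above 0 in 3D only in mouse 1, at 0.0350 (log2 difference -1.69, SE 0.12, adjusted p = 2.8e-05). Car12, a membrane enzyme with an outward catalytic site, was measured at 114 normalized FPKM in the 3D culture of mouse 1 and at 13.9, 2.28 and 1.73 in those of mice 4, 5 and 7, and was not called (adjusted p = 0.147).

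Atp1b1 encodes the beta 1 subunit of the sodium pump, which the pump needs to reach the membrane, and it was the highest of the 10 genes in every library. It was measured at 7.80, 59.5, 84.95 and 13.6 normalized FPKM in the 2D cultures of mice 2, 3, 4 and 5, and at 282, 141, 351 and 527 normalized FPKM in the 3D cultures of mice 1, 4, 5 and 7. The groups did not overlap. Within 2D, mice 3 and 4 stood several times above mice 2 and 5, and these were also the 2D libraries with high mesothelial markers. The mean went from 41.5 ± 37.1 to 325 ± 160 normalized FPKM (SD, n = 4 each), a ratio of 7.84. The fitted log2 difference was 3.36 (SE 0.78, limma adjusted p = 0.0106), and without the 2D cultures of mice 3 and 4 it was 4.64 (adjusted p = 0.00165). Within mouse 4, the level was 1.66-fold higher in 3D, and within mouse 5, 25.8-fold. The call was lost with the mouse as a block (log2 difference 2.66, adjusted p = 0.355) and with only mice 4 and 5 (2.65, adjusted p = 0.177). The gene, at chr1:164437109-164458355 on the minus strand, overlaps Nme7 on the opposite strand, which was deposited at between 6.87 and 8.59 FPKM in 2D and between 16.0 and 18.9 FPKM in 3D, and the counting is not stated to use strand.

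The make-up of the pump's beta subunits shifted with the culture. Atp1b1 held 9.18%, 57.4%, 62.4% and 13.8% of the summed FPKM of Atp1b1, Atp1b2 and Atp1b3 in the 2D cultures of mice 2, 3, 4 and 5, and 83.8%, 75.6%, 89.5% and 91.2% in the 3D cultures of mice 1, 4, 5 and 7. Atp1b3, the more widely expressed beta 3 subunit, had a mean of 55.9 normalized FPKM in 2D and 42.2 in 3D and was not called (limma adjusted p = 0.10). Atp1b3 thus led in the 2D cultures of mice 2 and 5, and Atp1b1 led in the 6 other libraries.

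**Figure D2:**
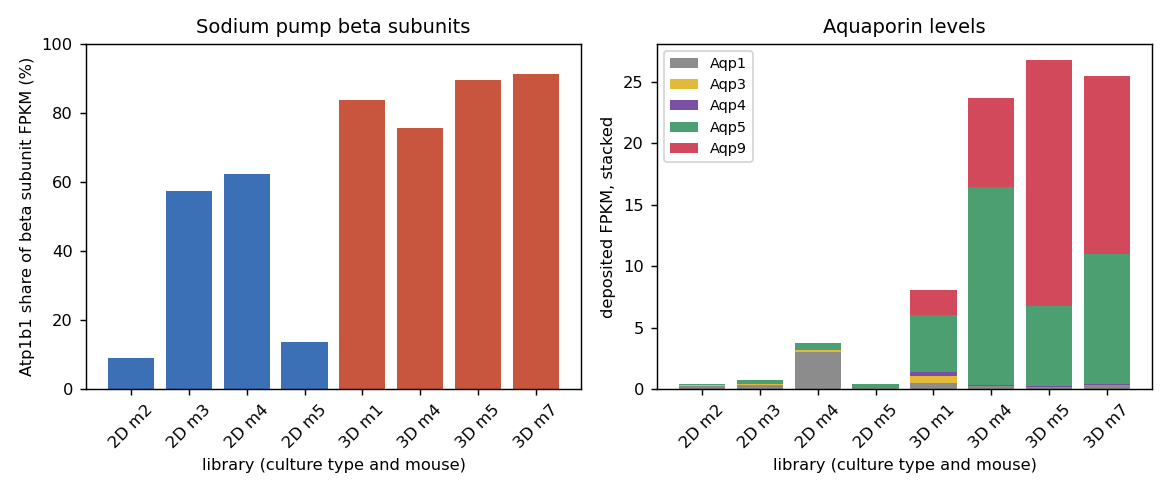
Left, share of Atp1b1 in the summed deposited FPKM of the beta subunit genes Atp1b1, Atp1b2 and Atp1b3, in percent; right, deposited FPKM of Aqp1, Aqp3, Aqp4, Aqp5 and Aqp9, stacked, for each library. The Atp1b1 share is at most 62.4% in 2D and at least 75.6% in 3D, and the Aqp9 segment is taller than that of Aqp5 only in the 3D cultures of mice 5 and 7.

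Of the 11 other sodium pump genes tested, 3 were higher in 3D, 2 were lower and 6 were not called. The share called, 45.5%, was close to the 41.5% of all genes. The small FXYD proteins tune the pump, and 3 of them were called. Fxyd3 was at 0 in 3 of the 4 2D libraries and at 876, 220, 188 and 177 normalized FPKM in the 3D cultures of mice 1, 4, 5 and 7 (log2 difference 7.88, SE 0.54, adjusted p = 2.8e-05). Fxyd4, known from kidney and colon, went from 0.0793 ± 0.159 to 66.4 ± 32.6 normalized FPKM (log2 difference 5.83, SE 0.35, adjusted p = 1.5e-05). Fxyd5, which lowers cell adhesion, fell from 39.3 ± 29.7 to 1.77 ± 1.08 normalized FPKM (log2 difference -3.61, SE 0.62, adjusted p = 0.00269).

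Cftr, the cyclic AMP-gated chloride channel that is mutated in cystic fibrosis, was barely detected. Its gene lies at chr6:18170687-18322768 on the plus strand. It was listed at 0, 0.0177, 0.0222 and 0 normalized FPKM in the 2D cultures of mice 2, 3, 4 and 5, and at 0.00618, 0.0452, 0.0841 and 0.00995 in the 3D cultures of mice 1, 4, 5 and 7. These correspond to between 0 and 3.97 fragments in 2D and between 0.998 and 7.97 in 3D. The groups overlapped, and the log2 difference of 0.04 (SE 0.03) had an adjusted p of 0.342 in limma. A difference was therefore not detectable at this depth.

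The other chloride carriers were better covered. Of 9 tested, 3 were higher in 3D, 2 were lower and 4 were not called, so that 55.6% were called beside 41.5% of all genes. Ano1, a calcium-activated chloride channel of secretory cells, was from 0.0622 to 0.216 normalized FPKM in 2D and from 68.1 to 164 in 3D, a ratio of means of 922 (log2 difference 6.69, SE 0.26, limma adjusted p = 1.5e-06). Slc12a2, the cotransporter that loads chloride into secretory cells from the basal side, went from 4.33 ± 0.828 to 78.3 ± 11.9 normalized FPKM (log2 difference 3.90, SE 0.15, adjusted p = 1.6e-06). Slc12a4, a potassium-chloride cotransporter that carries chloride out, fell from 35.4 ± 2.62 to 1.05 ± 0.476 normalized FPKM (log2 difference -4.18, SE 0.18, adjusted p = 2.4e-06). Slc12a2 and Slc12a4 both had non-overlapping groups, in opposite directions.

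Slc9a3, the apical sodium-proton exchanger of kidney and gut, was above 0 only in the 2D culture of mouse 3, at 0.0528 normalized FPKM or about 4.26 fragments. The gene lies at chr13:74121457-74169442 on the plus strand. All 3D cultures stood at 0, and no difference was detectable (log2 difference -0.02, SE 0.02, limma adjusted p = 0.532). Of 6 related exchanger and scaffold genes, 0 were higher, 1 was lower and 5 were not called, so that 16.7% were called beside 41.5% of all genes. The lower gene was Slc9a3r2, a scaffold that tethers the exchanger, with 14.7 ± 4.14 normalized FPKM in 2D and 3.69 ± 0.491 in 3D (log2 difference -1.71, SE 0.20, adjusted p = 3.6e-04). Its relative Slc9a3r1 was measured at 12.7, 250, 282 and 11.0 normalized FPKM in the 2D cultures of mice 2, 3, 4 and 5 and at between 106 and 154 in 3D. Ezr, which links such scaffolds to actin, showed the same split, with 7.25, 361, 572 and 4.62 normalized FPKM in 2D and between 207 and 284 in 3D. Neither was called (adjusted p = 0.480 and 0.323). As with Atp1b1 and Scnn1a, the 2D cultures of mice 3 and 4 were the high ones.

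Outside the families of the 10 genes, 6 of 8 potassium channel genes were higher in 3D, 1 was lower and 1 was not called, beside 21.2% of all genes higher and 20.3% lower. Kcnk1, a two-pore leak channel, was at 0 throughout 2D and measured from 93.5 to 130 normalized FPKM in 3D, at least 1072-fold higher by the deposited 3D mean over the highest level that 3 fragments give in a 2D library (log2 difference 6.78, SE 0.12, limma adjusted p = 3.8e-08). Kcnn4, the calcium-activated channel of secretory epithelia, went from 4.08 ± 4.73 to 95.8 ± 22.2 normalized FPKM (log2 difference 4.67, SE 0.59, adjusted p = 6.0e-04). Kcnk5, an acid-sensitive leak channel, went from 0.350 ± 0.254 to 24.4 ± 8.33 normalized FPKM (log2 difference 4.19, SE 0.26, adjusted p = 1.6e-05). Of 10 bicarbonate transporters tested, 2 were higher, 1 was lower and 7 were not called, so that 30% were called beside 41.5% of all genes. Among them, Slc4a11, a borate-transporter relative of the corneal endothelium, was measured at 4.93, 51.2, 45.3 and 21.7 normalized FPKM in the 3D cultures of mice 1, 4, 5 and 7 and at or below 0.866 in 2D (log2 difference 3.85, SE 0.65, adjusted p = 0.00238). Of the 4 kinases that set salt transport, Wnk4 was higher by 3.32 on the log2 scale (SE 0.25, adjusted p = 4.6e-05) and Oxsr1 was lower by 0.97 (log2 difference -0.97, SE 0.13, adjusted p = 6.9e-04).

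In all, 79 further genes of water and ion transport were listed, and 72 of them were above 0 in some library. Of these 72, 22 were higher in 3D, 10 were lower and 40 were not called, so that 44.4% were called against 41.5% of all genes. Their median log2 difference was 0.13. The share of calls was thus close to that of the whole table.

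**Figure D3:**
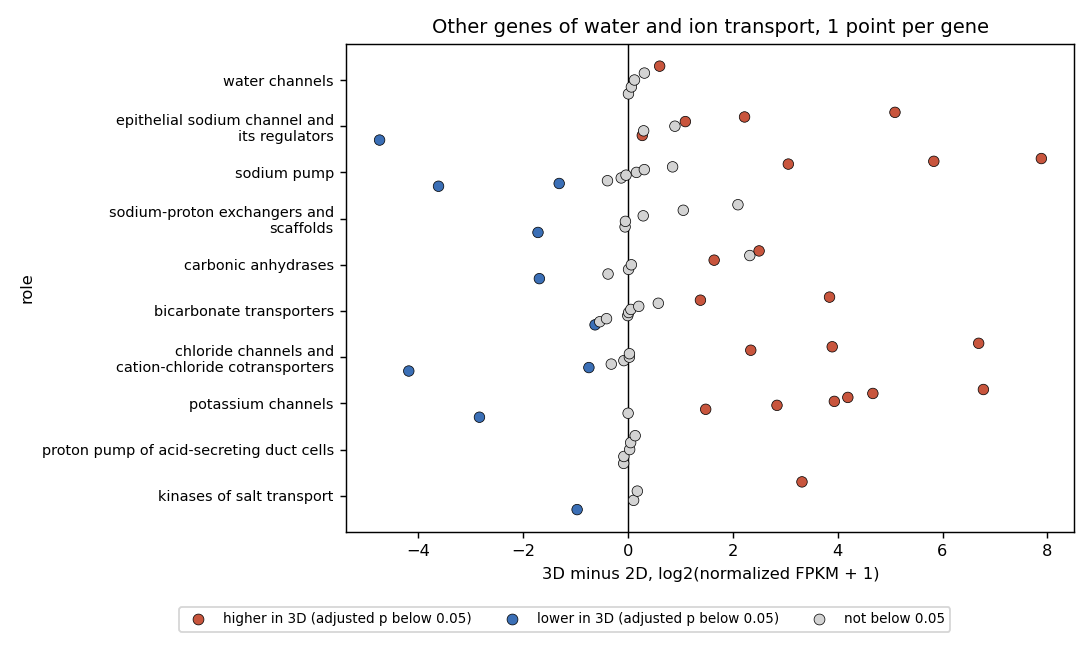
Fitted difference, 3D minus 2D, in log2(normalized FPKM + 1) for each of the 72 other transport genes tested, 1 point per gene, by role, with calls at an adjusted p below 0.05 in colour. The differences run from -4.73 (Sgk1) to 7.88 (Fxyd3), and the proton pump genes lie near 0.

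**Figure D4:**
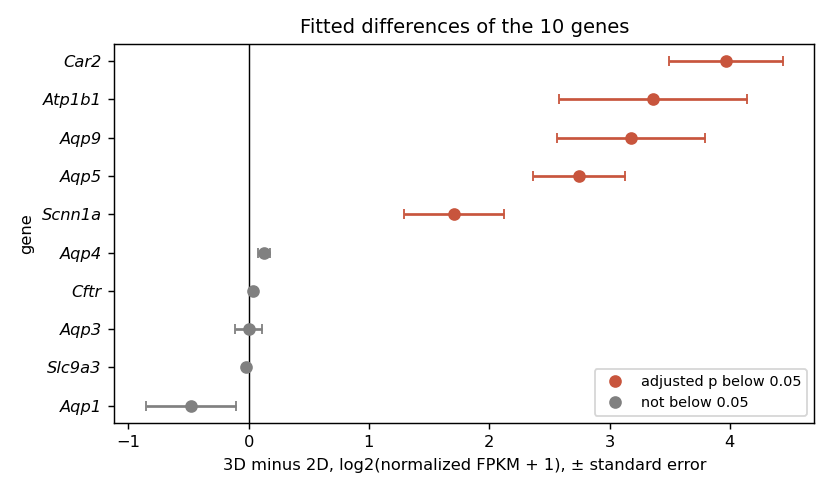
Fitted difference, 3D minus 2D, in log2(normalized FPKM + 1) for the 10 genes, with bars of 1 SE (4 libraries per group). Car2, Atp1b1, Aqp9, Aqp5 and Scnn1a lie between 1.71 and 3.97, and the other 5 genes lie between -0.48 and 0.13.

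In the fit with the mouse as a block, with 1 residual degree of freedom and resting on mice 4 and 5, 0 of the 10 genes and 0 of the 72 others were called in limma, and 3 and 29 of them had an unadjusted p below 0.05. Over the whole table, 0 genes were called in this fit, and 5216 had an unadjusted p below 0.05. The blocked adjusted p of the 20 other genes chosen by the naming rule was between 0.111 and 0.192. With only mice 4 and 5, Car5b, Oxsr1, Kcnn4, Fxyd5 and Aqp11 were also no longer called (adjusted p between 0.0517 and 0.120).

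The genes whose levels followed those of the called genes most closely over the 8 libraries were taken from 12582 genes with a mean of at least 1 normalized FPKM. The likeness is Pearson's r of log2(normalized FPKM + 1), given as a description, since all points share the split between the cultures. It does not take the size of a change into account. Aqp5 was followed by Psmb9, an immunoproteasome subunit (r = 0.996), and U2surp, a splicing factor (r = 0.996). Psmb9 was measured at 4.63, 29.3, 10.8 and 18.3 normalized FPKM in the 3D cultures of mice 1, 4, 5 and 7, in the same order of mice as Aqp5. Aqp9 was followed by Cers2, a ceramide synthase (r = 0.995), and Cxcl2, a neutrophil chemokine (r = 0.993), which was measured at 3.42, 9.30, 28.6 and 17.7 normalized FPKM in the same libraries. Car2 was followed by Hgfac (r = 0.995) and Rasal1 (r = 0.994), Atp1b1 by Hoxd3 (r = 0.994) and Mettl7a1 (r = 0.988), and Scnn1a by Miip (r = 0.977) and Sec16a (r = 0.973). Hoxd3 shared with Atp1b1 the higher levels in the 2D cultures of mice 3 and 4, at 1.55 and 2.39 normalized FPKM, against 0 and 0.0382 in mice 2 and 5. For Aqp5, 204 genes had an r above 0.95, for Aqp9 143, for Car2 313, for Atp1b1 148 and for Scnn1a 24.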

How the data were processed

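Total RNA of each culture was depleted of ribosomal RNA and made into directional paired-end libraries. The authors used FASTX_Trimmer and BBMap for trimming and TopHat for mapping (mm10, per the submitters' processing notes) and deposited FPKM values per gene from Cufflinks, without read counts. The annotation is not given in the sources used here. The study names quantile normalization as its next step. The deposited FPKM values do not include it, since their upper quartiles ranged from 10.7 to 11.4 and their maxima from 93611 to 419827.

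Of 24346 genes, 5484 were at 0 in every library, and the other 18862 were quantile normalized. Linear models on log2(normalized FPKM + 1) were fitted with limma 3.58.1 in R 4.3.3, with an intensity trend, without covariates. Tests were two-sided. This scale understates the change of low genes. Ratios are of mean normalized FPKM unless stated otherwise. The study's cut-offs, an unadjusted p below 0.05 and a fold past 2 or 0.5, were applied to these fits as an alternative. Other alternatives were the deposited values, upper quartile scaling, genes under 300 nt left out, a minimum mean of 1 FPKM, no filter and a pseudocount of 0.1. Further ones were no trend, the mouse as a block or random effect, and only mice 4 and 5. Each library was also left out in turn, as were the 2D cultures of mice 3 and 4. The fit was first tested on simulated data.

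Low FPKM values tend to lie at whole multiples of what 1 fragment gives. Such steps put the depth at 14.5 M to 17.4 M fragments per library. They were sought in 875 eligible genes, of which 126 to 150 per library had a low value above 0. Of these values, 67.8% to 79.2% lay within 0.15 of a whole multiple at the depth chosen from them, which is no separate check of the depth. A level of 3 fragments on 1 kb equals 0.173 to 0.207 FPKM. Fragments and floors use the longest GENCODE M21 transcript (GRCm38), matched by symbol for 23310 genes (95.7%), and cover counting error only. Genes under 300 nt held 19.5% to 63.2% of the FPKM total.

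Replicates are separate mice. Same-numbered libraries came from the same mouse, so mice 4 and 5 form pairs. The deviations of their 2D and 3D libraries from the group means correlated at -0.05 and -0.11 over 12577 genes. The 10 genes, the other transport genes, the marker lists and the naming rule were chosen with earlier results of these data known. The rule named all 10 genes, up to 3 other genes per role with the largest called difference and no overlap, and the 2 genes most like each of the 10 with a mean of at least 1 FPKM. Further genes of the roles, such as Atp1b3, Scnn1b, Scnn1g, Nedd4l, Car12, Ezr and Slc9a3r1, were named after their values were seen. The values of some listed genes are not reported here.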

Additional observations from a re-analysis of the deposited data

Results flagged for a closer look

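In 10 of the 60 groups of 4 libraries examined, 1 library stood apart from the other 3 by Dixon's criterion. The groups cover the 10 genes and the 20 other named genes. For normally distributed values, chance alone gives this in about 5% of groups. Where the other 3 libraries are all at 0, any value above 0 meets the criterion. That rate therefore does not hold here, and whether the count of flags exceeds chance cannot be judged. All values are normalized FPKM. Among the 10 genes, Aqp1 was 3.22 in the 2D culture of mouse 4, against at most 0.462 in the rest of its group. Aqp3 was 0.383 in the 3D culture of mouse 1, against 0 in the rest of its group. Aqp9 was 0.0416 in the 2D culture of mouse 5, about 1 fragment, and Slc9a3 was 0.0528 in that of mouse 3, with 0 in the others of their group. Car2 was 5.09 in the 3D culture of mouse 7 against 20.9 to 26.2 in the rest of its group.

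Among the other genes, Fxyd3 was 1.09 and Fxyd4 was 0.317 in the 2D culture of mouse 4, and both were 0 in the other 2D libraries. Fxyd3 was 876 in the 3D culture of mouse 1, against 177 to 220 in the other 3D libraries, and Car6 was 0.0350 there, against 0. Slc9a3r2 was 2.97 in the 3D culture of mouse 4, against 3.81 to 4.00.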

How the results depend on the processing

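The 5 calls among the 10 genes (Aqp5, Aqp9, Scnn1a, Car2 and Atp1b1) were all made under every alternative except 2 fits, the block and that with only mice 4 and 5, where Aqp5, Aqp9 and Car2 remained called in the latter. In the blocked fit, which pairs mice 4 and 5, 0 of the 10 genes, 0 of the 72 other transport genes and 0 genes of the whole table were called in either direction. That fit has 1 residual degree of freedom. With only mice 4 and 5, 3 of the 10 genes were higher, 14 other transport genes were higher and 5 lower, and 1788 genes of the table were higher and 1432 lower. At the cut-offs of the study, applied to the limma p and to the fitted differences in log2(normalized FPKM + 1), 1990 genes were higher and 2069 lower. The study's own fold values and test were not repeated. Leaving out each library in turn gave between 3393 and 4051 genes higher and between 3204 and 3835 lower, 5 to 6 of the 10 genes higher and 0 lower, and 21 to 23 other transport genes higher and 9 to 11 lower. Aqp3, near the limit of detection, changed sign, at -0.23 with a pseudocount of 0.1, -0.11 with the mouse as a block, -0.10 with only mice 4 and 5, and from -0.1062 to 0.0403 when single libraries were left out. The cause was not tested. A minimum mean of 1 FPKM removes Aqp1, Aqp3, Aqp4, Cftr and Slc9a3, of which it gives no value.

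With no paired block, 6 degrees of freedom remain, and mice 4 and 5 count as separate libraries in each group. A level under 3 fragments cannot be told from 0 at these depths, which holds for Aqp4, Cftr and Slc9a3 in most 2D libraries.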

Other observations

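The proton pump of acid-secreting duct cells was hardly detected in either culture. Of 6 listed genes, 5 were tested, and 0 were called in limma, also at an unadjusted p below 0.05. Over all genes tested, 41.5% were called. Foxi1, the transcription factor of such cells, was above 0 only in the 3D culture of mouse 1, at 0.159 normalized FPKM. Atp6v0a4, a membrane subunit of the pump, was measured from 0.159 to 0.389 normalized FPKM in 2D and at 1.11, 0, 0.0231 and 0.0630 in the 3D cultures of mice 1, 4, 5 and 7.

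The 3D culture of mouse 1, whose short description does not name the culture type, also held the highest levels of several channels that were low or absent in the other 3D libraries. Aqp8, a channel of water and small solutes, was 1.40 normalized FPKM there and listed at 0 in all other libraries. Slc26a4, the chloride-bicarbonate exchanger pendrin, was 3.43 there and at most 0.0685 in the other 3D libraries, and it was listed at 0 in all 2D libraries. Neither was called (limma adjusted p = 0.407 and 0.357). In the same library Ly6a was deposited at 50.3 FPKM, against 1627 to 2607 FPKM in the other 3D libraries. These genes were named after their values were seen.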
